A study of Mus musculus with 42 samples.

Results

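Cytosolic ribosomal protein genes encode the protein part of the ribosomes that translate messenger RNA in the cytoplasm. They were taken from the RNA-seq count tables by gene symbol: every symbol of the form Rpl or Rps followed by a number, with an optional a, x, y or l suffix, plus Rpsa, Rplp0, Rplp1 and Rplp2. This rule found 85 of 24466 gene rows, of which 33 carry a small subunit name and 52 a large subunit name. The choice used names only and no measured value.

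The study compared mouse myogenic cells that differ in the transcription factor Pax7, which marks and maintains muscle stem cells. iPax7 cells are a line of muscle precursors made from mouse embryonic stem cells, in which doxycycline (Dox) switches on Pax7. The +Dox group was grown in serum with basic FGF and 0.75 µg/ml Dox (3 libraries), and the -Dox group was washed and kept for 3 days in the same medium with FGF but no Dox (2 libraries). Satellite cells were sorted from the skeletal muscle of Pax7-ZsGreen reporter mice and carry no inducible transgene (3 libraries). The age of the mice was not given in the sources used here. The +Dox and -Dox groups share the cell line, serum and FGF, whereas satellite cells differ from both in source and preparation, and these differences cannot be told apart from the cell type. The libraries of a group are separate count tables of 1 labelled sample, and nothing says that they came from separate cultures or animals. The p-values therefore measure only the spread between these libraries, which may be technical.

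A cytosolic ribosome has a small subunit, which reads the messenger RNA, and a large subunit, which joins amino acids. Their proteins are needed in near equal numbers, and their messenger RNAs are among the most abundant in growing cells. Many of these messenger RNAs begin with a run of pyrimidines, the 5′ terminal oligopyrimidine (TOP) tract, through which growth signals control their translation. The genes have also left many processed pseudogenes in mammalian genomes, so that short reads from them often align to several places.

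Gene counts per library ran from 39010958 to 54674619, so that 75 of the 85 genes had at least 1000 counts in every library. Pax7 had 12759, 14130 and 11610 normalized counts (counts divided by the TMM-scaled library size, then brought back to a common size) in +Dox, 221 and 270 in -Dox, and 8504, 3926 and 5456 in satellite cells. Of 17 differentiated muscle markers, 17 were called higher in -Dox than in +Dox (edgeR, adjusted p under 0.05), where 4.66% of all genes were. All 12 proliferation markers were lower in -Dox and 11 were called lower, where 3.04% of all genes were. The satellite cell libraries also held markers of other cell types: 10 endothelial genes summed to 22392 to 29944 normalized counts against 399 to 952 in +Dox, 14 immune genes to 3659 to 14935, and 10 mesenchymal genes to 83340 to 161310. None of these 3 lists had a gene at 0 in all satellite cell libraries. In the red cell list, 6 of 7 genes were at 0 in every library and the other summed to 735 to 1174 in satellite cells. The part of these cells in the differences below was not tested. In bulk RNA, fewer cells of a type and less RNA per cell cannot be told apart.

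The records set aside as aligning to several places differed between the sources before any gene was examined. They made up 7.11% to 7.60% of all records in +Dox, 7.51% to 7.54% in -Dox and 23.6% to 30.7% in satellite cells. In number, satellite cell libraries held 12280020 to 19869622 such records and iPax7 libraries 4069259 to 4401536. Which genes these records came from cannot be read from the count tables. Their part in the satellite cell comparisons was not tested, and a scaling that counts them in the library size is given beside each result it moves.

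Ribosomal protein genes together took 6.41%, 7.09% and 10.2% of gene counts in +Dox, a mean of 7.91% ± 2.04 (SD, n = 3). The share was 6.57% and 6.10% in -Dox (6.34% ± 0.333, SD, n = 2) and 5.24%, 4.77% and 6.56% in satellite cells (5.52% ± 0.931, SD, n = 3). The groups overlapped, since the -Dox libraries and the highest satellite cell library lay around the lowest +Dox library. The mean of +Dox was carried by replicate 3, and without it the mean was 6.75%. With the records that align to several places in the denominator, the mean share fell to 7.32% in +Dox, 5.85% in -Dox and 3.94% in satellite cells. The satellite cell libraries then ran from 3.31% to 4.51% and lay below every iPax7 library (5.63% to 9.44%).

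**Figure D1:**
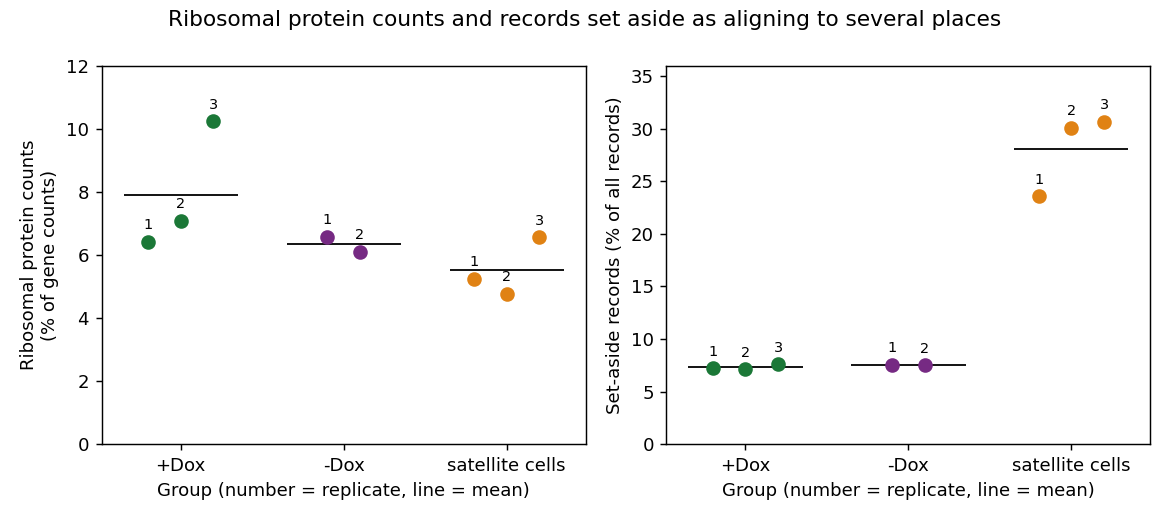
Left, counts on the 85 ribosomal protein genes as percent of gene counts; right, records set aside as aligning to several places as percent of all records. Each point is 1 library, numbered by replicate, and lines are group means. The 3 satellite cell libraries lie at 23.6% to 30.7% in the right panel against 7.11% to 7.60% for iPax7 cells, while in the left panel the groups overlap and +Dox replicate 3 stands highest at 10.2%.

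The genes moved as a block from library to library within a group. +Dox replicate 3 held the highest normalized count of its group for 80 of the 80 genes that passed the filter on low counts, and the highest of all 8 libraries for 59. Satellite cell replicate 3 was the highest of its group for 75 of 80, and -Dox replicate 1 for 75 of 80. The ratio of the highest to the lowest library had a median of 1.87 across the genes in +Dox, 1.11 in -Dox and 1.497 in satellite cells. Over all genes tested the corresponding medians were 1.72, 1.21 and 2.24. In satellite cells, 21.3% of the ribosomal protein genes varied more than 2-fold between libraries, and 56.7% of all genes tested did. The counts of calls below are therefore also given without +Dox replicate 3.

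A small set of genes differed more than the rest between the satellite cell libraries. Rpl21, a large subunit gene, had 184, 193 and 4662 normalized counts in the 3 satellite cell libraries and 2564 to 5001 in the iPax7 libraries. Rps18, of the small subunit head, had 21920, 19956 and 79589, and Rplp0, the base of the stalk that recruits elongation factors, had 46271, 65775 and 177090. Replicate 3 was the high library for each of these 3 genes. Rps2, also of the small subunit, went the other way, with 7108, 12840 and 2506. In all, 11 genes differed more than 3-fold between satellite cell libraries, against 4 in +Dox and 1 in -Dox.

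**Figure D2:**
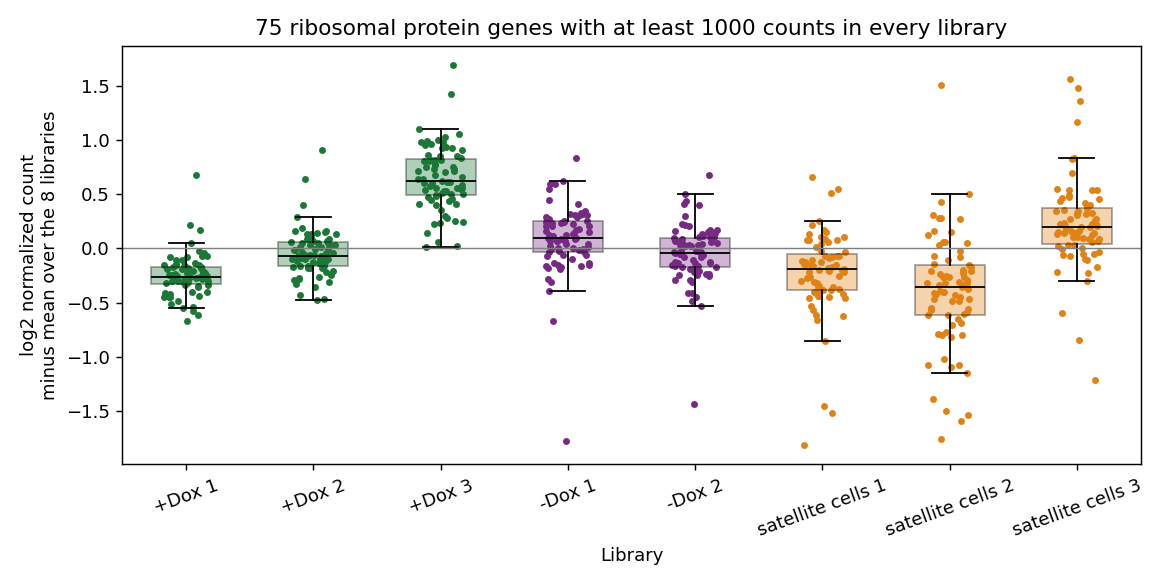
Normalized counts of the 75 well counted ribosomal protein genes in each library, as log2 difference from the mean of that gene over the 8 libraries. Points are genes, boxes show quartiles with the median, and whiskers reach 1.5 times the box height. The +Dox replicate 3 points lie almost all above 0, and the satellite cell points spread further than the -Dox points.

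Levels per length spanned a wide range among genes whose products are needed in equal number. Over the 83 genes with a transcript model, the median in +Dox was 920.5 CPM per kilobase of transcript, where CPM is the count scaled to the TMM-adjusted library size, with quartiles of 491.9 and 1366. Rps14 stood highest at 3396, a level per length that was 2195 in satellite cells. In satellite cells the median was 726.7 and the highest level was that of Rpl13, at 3165. At the other end, 8 genes had fewer than 200 counts in every library: Rpl10l, Rpl26, Rpl39l, Rpl30, Rpl3l, Rpl32l, Rpl34 and Rps27. Rpl10l, Rpl26 and Rpl39l had no count in any library, which allows up to 3 counts in each. Rpl10l and Rpl39l are paralogues known from the testis, and Rpl3l is a paralogue known from striated muscle. Rpl26, Rpl30, Rpl34 and Rps27, by contrast, encode standard subunits of every ribosome.

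For these 4 standard genes the annotated genome (NCBIM37 with GENCODE M1) holds a second row of the count tables with nearly the same sequence. The first 60 coding bases of each gene and of its copy are shown because a read that falls within them matches both places. Rpl26 lies at chr11:68715085-68720491 (plus strand) and its copy, the pseudogene Gm15772, holds the bases shown at chr5:3236431-3236490 (plus strand). Rpl30 lies at chr15:34370260-34373395 (minus strand), with Gm12191 at chr11:49492500-49492559 (minus strand). Rpl34 lies at chr3:130429749-130433316 (minus strand), with Rpl34-ps1 at chr6:71074604-71074663 (plus strand). Rps27 lies at chr3:90016593-90017573 (minus strand), with Rps27rt at chr9:114891766-114891825 (minus strand). Rps27l, the paralogue of Rps27 at chr9:66793893-66797323 (plus strand), is shown last, with capitals at the 18 of 60 bases that differ from Rps27. No base differs within the other pairs.
Rpl26: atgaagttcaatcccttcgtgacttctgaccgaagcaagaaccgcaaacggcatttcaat
Gm15772: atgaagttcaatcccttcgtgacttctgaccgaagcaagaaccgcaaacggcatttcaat
Rpl30: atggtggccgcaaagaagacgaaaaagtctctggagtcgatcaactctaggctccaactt
Gm12191: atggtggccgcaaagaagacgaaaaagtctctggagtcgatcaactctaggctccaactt
Rpl34: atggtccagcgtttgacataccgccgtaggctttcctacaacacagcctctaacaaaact
Rpl34-ps1: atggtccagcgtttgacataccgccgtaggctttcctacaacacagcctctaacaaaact
Rps27: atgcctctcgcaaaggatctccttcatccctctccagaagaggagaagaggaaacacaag
Rps27rt: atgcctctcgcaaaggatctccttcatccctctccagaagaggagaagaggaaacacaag
Rps27l: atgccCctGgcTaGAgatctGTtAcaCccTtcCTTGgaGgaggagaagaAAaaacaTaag

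Each transcript was divided into overlapping windows of 50 bases, and each window was searched in the genome outside its own gene, allowing 2 mismatches. Gm15772 matched 98.7% of the windows of Rpl26, Gm12191 72.4% of Rpl30, Rpl34-ps1 86.8% of Rpl34 and Rps27rt 98.7% of Rps27. These 4 copy rows had 0 counts in all 8 libraries, while the genes had 0 to 152. The part of the copies in these low counts was not tested. Other genes whose copy has its own row had higher counts. Rpl14, with Rpl14-ps1 matching 92.0% of its windows, had 28177 to 113838 counts while Rpl14-ps1 had 3438 to 10423. Rpl22l1, with Gm15421 matching 83.4%, had 6272 to 15929 counts while Gm15421 had 396 to 937.

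Copies were the rule among all ribosomal protein genes. The median gene had a copy elsewhere for 84.1% of its windows and an identical copy for 64.0%, and 65 of 83 genes had a copy for at least 50% of windows. The level per length in +Dox had a Spearman correlation of 0.299 across the 83 genes with the share of windows that had an identical copy. With the share whose copy lies in another row of the count tables it was -0.262. Both are descriptions across genes that share libraries and are not independent replicates. The level and these shares also depend on the length of the same transcript model. Genes with long models were low in both, such as Rpl24 (4999 bases, 167.8 CPM per kilobase, 0% of windows) and Rps20 (3706 bases, 145.2, 9.95% identical). The model used was the one with the longest coding sequence, which in Rpl24 runs from base 259 to 3411. These values therefore describe the model and may not hold for the main transcript of the gene. The mean normalized count of Rpl24 in +Dox was 39675. The part of length in the correlations was not tested.

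**Figure D3:**
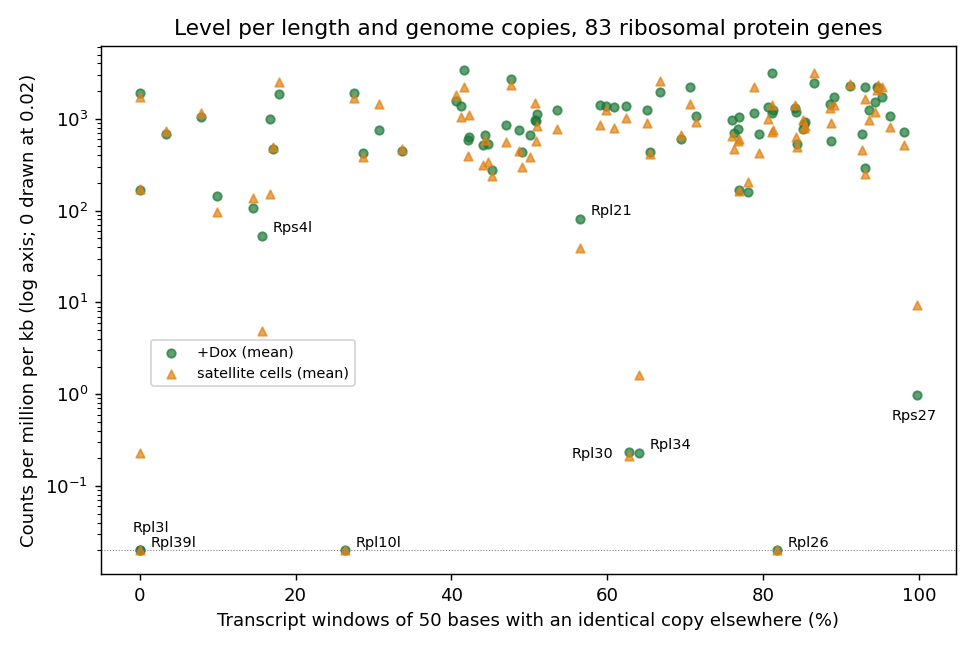
Level per length (CPM per kilobase, log axis, mean of the group) of 83 ribosomal protein genes against the percent of their 50-base windows with an identical copy elsewhere in the genome. Circles are +Dox and triangles satellite cells, and levels of 0 are drawn at the dotted line. Genes with many identical copies lie on both sides of the +Dox median of 920.5. The labelled low points are Rpl21, Rpl26, Rpl30, Rpl34 and Rps27 together with the paralogues Rps4l, Rpl10l, Rpl39l and Rpl3l.

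The promoters of these 4 standard genes lay in open chromatin. Rpl26, Rpl30, Rpl34 and Rps27 each had an ATAC-seq peak, a region open to the transposase, within 1 kb of the transcription start in +Dox cells. The fold enrichment of these peaks was 19.7, 29.9, 44.5 and 31.8, beside a median of 31.8 over ribosomal protein genes with a peak and 22.1 over all genes with a peak. In satellite cells the 4 peaks had 10.2, 43.6, 40.03 and 16.6. All 4 genes also had an H3K4me3 region, the mark of active promoters, in +Dox and in -Dox cells. Rpl10l and Rpl39l had neither, and Rpl3l had neither but had an H3K27me3 region, a mark of repression, within 1 kb of its start.

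Among the 83 ribosomal protein genes with an annotated start, 96.4% had an ATAC-seq peak within 1 kb in +Dox cells, where 63.1% of 20332 genes had one. In satellite cells it was 94.0% against 58.6%. An H3K4me3 region lay within 1 kb of the start for 96.4% of the genes in +Dox against 61.2% of all genes, and an H3K27Ac region for 95.2% against 48.3%. An H3K27me3 region lay within that distance of 1 gene, Rpl3l, or 1.20% against 20.7%. These lists give 1 set of regions a condition, with no replicate values, so no test was made between conditions. Pax7 ChIP-seq peaks lay within 1 kb of 3 starts, those of Rpl11, Rpl31 and Rps29, which is 3.61% of the genes (95% exact interval 0.752% to 10.2%) beside 1.41% of all genes.

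The 5′ ends of these genes were searched for pyrimidine runs. RefSeq (GRCm38.p6) gave 76 promoter windows for 64 of the genes. Within 20 bases of the start, the longest uninterrupted run of C or T on the sense strand had a median of 7 bases, beside 5 over all 32851 promoters. A run of 8 or more was present in 42.1% of the ribosomal protein windows and in 16% of all. The longest such runs are shown in capitals for 4 genes. A run was taken on either side of the annotated start, so it need not lie in the messenger RNA or be a TOP tract. Another promoter window of Rpl34 had a longest run of 8. The windows lie at chr2:26910787-26910826 (Rpl7a, plus strand), chr7:109519175-109519214 (Rpl27a, plus strand), chr3:130730318-130730357 (Rpl34, minus strand) and chr2:39005112-39005151 (Rpl35, minus strand) of GRCm38.p6.
Rpl7a: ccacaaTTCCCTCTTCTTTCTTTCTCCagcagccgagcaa
Rpl27a: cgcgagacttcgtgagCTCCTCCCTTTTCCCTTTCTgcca
Rpl34: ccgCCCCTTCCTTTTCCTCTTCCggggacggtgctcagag
Rpl35: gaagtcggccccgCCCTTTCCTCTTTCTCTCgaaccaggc

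Short motifs were searched on both strands of the 300 bases around each start. CCGGAAG, the core of the ETS and GABP site, was in 35.5% of the ribosomal protein windows and 8.86% of all. TCTCGCGA was in 15.8% and 0.995%, and AAGATGGC, the core of the YY1 site, in 10.5% and 2.75%. TATAAA was in 10.5% and 13.6%. These are matches of letters and no evidence of binding.

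Withdrawal of Dox for 3 days changed none of the ribosomal protein genes past the test. By the quasi-likelihood test of edgeR, adjusted by the Benjamini-Hochberg method, 0 of 80 were called at an adjusted p under 0.05, where 7.7% of all 14836 genes tested were called, 4.66% higher and 3.04% lower in -Dox. At an unadjusted p under 0.05 there was 1, against 3208 of the 14836 genes. DESeq2 called 1, against 16.2% of all genes, and the gene was Rps2 in both. The median log2 fold change of the genes was -0.13 and that of all genes tested -0.0049, with 16 of the 80 above 0. Without +Dox replicate 3 the median was 0.19 and still 0 were called (6.6% of all genes), so that the direction of the common shift rested on that library. This stands beside 17 of 17 differentiated muscle markers called higher and 11 of 12 proliferation markers called lower in the same libraries.

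Rps2, a small subunit protein of the messenger RNA entry side (chr17:24855061-24858874 of NCBIM37), had the lowest fold change on Dox withdrawal. It had 3950, 7020 and 12103 normalized counts in +Dox, 1308 and 1660 in -Dox, and 7108, 12840 and 2506 in satellite cells. Both -Dox libraries lay below every other library. Of its windows, 91.9% had a copy elsewhere and 76.9% an identical one. Its level per length in +Dox was 169 CPM per kilobase, beside the median of 920.5 over the genes. The part of reads that align to several places in its differences was not tested. The log2 fold change from +Dox to -Dox was -2.37 ± 0.68 (SE), with an adjusted p of 0.0701 in edgeR. From -Dox to satellite cells it was 2.33 ± 0.68 with an adjusted p of 0.0235, which rose to at most 0.14 without either -Dox library or without satellite cell replicate 2. Next lowest among the 75 well counted genes came Rpl13, a large subunit gene, with -0.63 and Rps10 with -0.62, and highest was Rpl38 with 0.28.

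Between satellite cells and +Dox cells, 9 of 80 ribosomal protein genes were called, or 11.2%, where 44.9% of all genes tested were called. Of these 3 were higher in satellite cells (25.1% of all genes were) and 6 lower (19.8% of all genes). The median log2 fold change was -0.21, beside 0.17 over all genes tested. No test was made of the difference between these shares. Between satellite cells and -Dox cells, 8 of 80 were called (10.0%, against 39% of all genes), 4 higher (20.9% of all genes) and 4 lower (18.1%), with a median of -0.063 beside 0.23. Both comparisons use the same satellite cell libraries. In each, only Rps27l and Rps4l stayed called in every one of the 8 fits that left out 1 library, with adjusted p values of at most 0.0385 in edgeR. Against -Dox, the other 6 calls were lost without either -Dox library, which leaves 1 library in that group. Calls among all genes also became fewer in these fits.

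These counts depended on the scaling. With total gene counts alone in place of TMM, which moved the median of all genes from 0.17 to -0.20, 34 genes were called between satellite cells and +Dox, 2 higher and 32 lower, where 46% of all genes were called. With the records that align to several places added to the library size, which moved it to -0.57, 59 were called, 0 higher and 59 lower, where 48.8% of all genes were called. The ribosomal protein median was -0.58 and -0.96 under these scalings, which move all genes of a library alike. Against -Dox, the second of these scalings moved the median of all genes from 0.23 to -0.29 and called 31, of which 1 was higher and 30 lower, where 40.1% of all genes were called. Without +Dox replicate 3, the satellite cell to +Dox comparison called 10, now 8 higher and 2 lower (39.1% of all genes were called). The ribosomal protein median was then 0.076 beside 0.19 over all genes, a gap of 0.111 in place of 0.381 with all libraries. Against -Dox, leaving out that library gave 9 calls, 5 higher and 4 lower, where 41.6% of all genes were called.

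**Figure D4:**
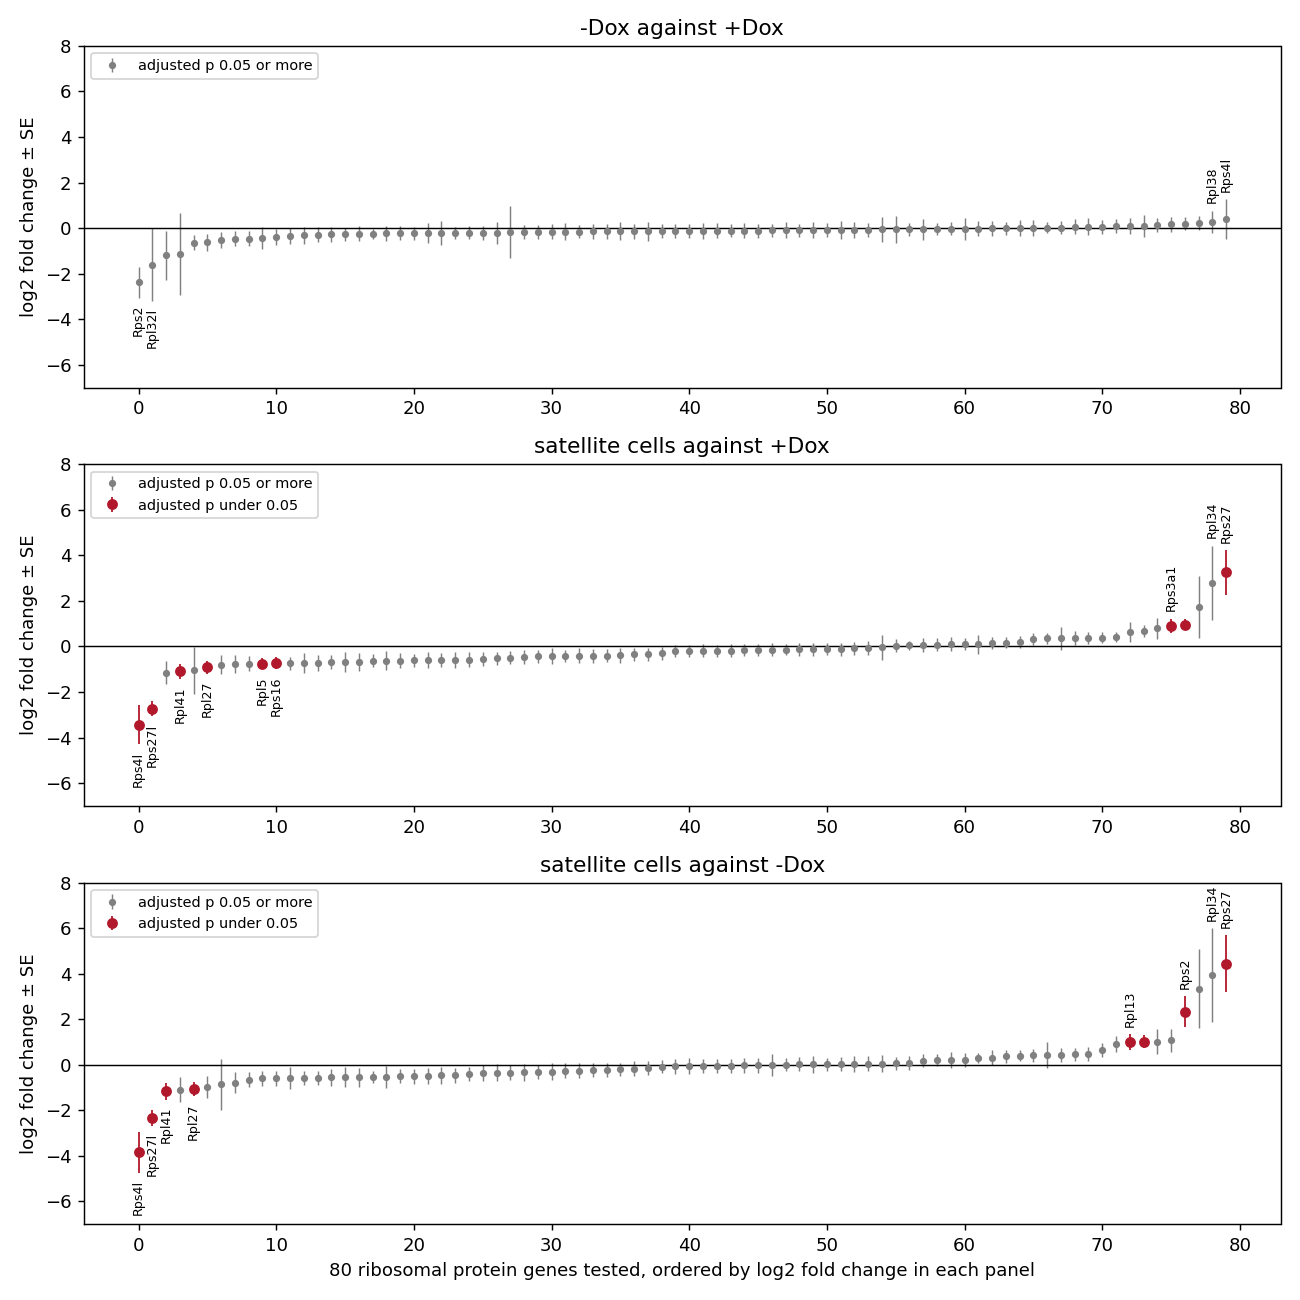
Log2 fold change with its approximate standard error for the 80 ribosomal protein genes tested, ordered by fold change in each panel. Large red points passed the test at an adjusted p under 0.05: 0 in -Dox against +Dox, 9 in satellite cells against +Dox and 8 in satellite cells against -Dox. Labels mark genes described in the text that were called or lay at the ends of a panel.

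Rps27l, the paralogue of the small subunit gene Rps27 and a known target of p53, was clearly separated between satellite cells and iPax7 cells. It had 19383, 22815 and 39305 normalized counts in +Dox, 21668 and 19399 in -Dox, and 3443, 3579 and 5221 in satellite cells. The satellite cell libraries all lay far below the iPax7 libraries. The log2 fold change was -2.73 ± 0.33 (SE) against +Dox, with an adjusted p of 0.000216, and -2.33 ± 0.34 against -Dox, with an adjusted p of 0.000789. Of its windows, 38.4% had a copy elsewhere.

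Rps4l, an autosomal paralogue of the X-linked small subunit gene Rps4x (chr6:148303178-148304120), was the other gene that held in every fit. It had 2038, 2029 and 2990 normalized counts in +Dox, 2758 and 3452 in -Dox, and 140, 20.1 and 489 in satellite cells. The groups did not overlap, although the satellite cell libraries varied 24.3-fold among themselves. Of the Rps4l windows, 55.15% had a copy elsewhere and 15.66% an identical one. The part of reads that align to several places in its differences was not tested. The log2 fold change was -3.44 ± 0.86 against +Dox (adjusted p of 0.0103 in edgeR) and -3.84 ± 0.91 against -Dox (adjusted p of 0.00922). Counted against Rps4x, it made up 3.67% to 6.86% of the pair in the 5 iPax7 libraries and 0.0333% to 0.607% in the 3 satellite cell libraries. At its start an ATAC-seq peak was listed in +Dox with an enrichment of 4.22 and at 3 days of -Dox with 3.24, and none was listed in satellite cells.

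Rps27 itself was higher in satellite cells, but at counts that are far under those of other standard genes. It had 10, 18 and 30 counts in +Dox, 9 and 6 in -Dox, and 152, 70 and 126 in satellite cells. The log2 fold change of the normalized counts was 3.25 ± 0.99 against +Dox (adjusted p of 0.0246 in edgeR) and 4.45 ± 1.26 against -Dox (adjusted p of 0.0201). Rpl34, in the same position, had 9, 1 and 9 counts in +Dox, 5 and 0 in -Dox, and 33, 18 and 33 in satellite cells, and was not called (adjusted p of 0.189 and 0.152 in edgeR). For both genes every satellite cell library was above every iPax7 library, and these were also the libraries with the larger share of records that align to several places. The part of these records in the differences was not tested. Rps27 lost the call against +Dox without +Dox replicate 1 or 2, with those records in the library size and in the blocked fit by replicate number, with adjusted p values up to 0.0857 in edgeR.

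The well counted genes called higher in satellite cells included Rps3a1, Rpl13 and, against -Dox, Rps2. Rps3a1 had 44656, 49559 and 66999 in +Dox, 58594 and 50053 in -Dox, and 74001, 80433 and 149600 in satellite cells. Its libraries did not overlap, and it was called against +Dox (0.92 ± 0.31, adjusted p of 0.0367 in edgeR) but not against -Dox (0.90 ± 0.35, adjusted p of 0.0683). The call was lost in 5 of 8 fits without 1 library, those without +Dox replicate 1 or 2, either -Dox replicate or satellite cell replicate 3, with adjusted p values up to 0.136 in edgeR. It was also lost with only the 2 groups compared, with total gene counts (0.52 on the log2 scale), and with records aligning to several places in the library size (0.13). Rpl13, of the large subunit, had 54607 and 62343 in -Dox and 105850 to 127640 in satellite cells, a log2 fold change of 1.00 ± 0.35 with an adjusted p of 0.0451 in edgeR. The +Dox libraries of Rpl13, at 62067, 73528 and 136420, overlapped with satellite cells.

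Besides Rps27l, the well counted genes called lower in satellite cells were Rpl41, Rpl27, Rpl5 and Rps16. Rpl41, which encodes the smallest ribosomal protein, had 52366, 63695 and 121380 normalized counts in +Dox, 87764 and 77609 in -Dox, and 44985, 27575 and 38562 in satellite cells, so that every satellite cell library was below every iPax7 library. Its log2 fold change was -1.10 ± 0.34 against +Dox (adjusted p of 0.0255 in edgeR) and -1.16 ± 0.37 against -Dox (adjusted p of 0.0326). Without +Dox replicate 3 the first was -0.65 and not called, and without satellite cell replicate 2 or 3 neither was called. Rpl27 had 25139, 28793 and 48393 in +Dox, 39548 and 35620 in -Dox, and 17076, 15531 and 21926 in satellite cells. These also did not overlap, with -0.91 ± 0.29 (adjusted p of 0.0282 in edgeR) and -1.05 ± 0.31 (adjusted p of 0.0257). Rpl5, which carries 5S ribosomal RNA into the large subunit together with Rpl11, and Rps16 were called only against +Dox, with -0.75 ± 0.24 and -0.74 ± 0.27. Both lost the call in most fits without 1 library, among them the fit without +Dox replicate 3, and Rpl27 lost its call against +Dox there too.

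The small and the large subunit were not tested against each other. The 33 small subunit genes tested had a median log2 fold change of -0.60 from +Dox to satellite cells, with 8 above 0, and the 47 large subunit genes a median of -0.14, with 17 above 0. From +Dox to -Dox the medians were -0.14 and -0.12. Genes with an identical copy for at least 50% of windows had a median of -0.34 from +Dox to satellite cells (51 genes) and the others -0.19 (27 genes).

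The stalk of the large subunit, which holds the elongation factors, consists of Rplp0, Rplp1 and Rplp2. From +Dox to satellite cells their log2 fold changes were 0.63 ± 0.44, -0.41 ± 0.30 and -0.47 ± 0.30, and none was called in any of the 3 comparisons. Rpsa, a small subunit protein also known as a laminin receptor, had 98433, 103940 and 128650 normalized counts in +Dox, 91557 and 83576 in -Dox, and 70685, 39711 and 94388 in satellite cells. It was lower in all 3 satellite cell libraries than in all 3 +Dox libraries and was not called (adjusted p of 0.0909 in edgeR).

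Other paralogue pairs had proportions that overlapped between the groups. Rpl22l1, which can stand in for Rpl22, made up 49.4%, 50.3% and 53.3% of the counts of the pair in +Dox, 53.2% and 51.0% in -Dox, and 48.1%, 53.0% and 56.4% in satellite cells. Rpl7l1, a nucleolar paralogue of Rpl7, made up 11.1% to 16.8% of its pair over the 8 libraries. Neither pair set a group apart. Rpl3l, the striated muscle paralogue of Rpl3, had 34 counts in satellite cell replicate 1 and 0 in the other 7 libraries, -Dox cells with their muscle genes included. Rpl3 had at least 108801 counts in each.

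Genes of related function give the setting, and their counts are read against the 7.7% of all genes called on Dox withdrawal and the 44.9% called between +Dox and satellite cells. Fau, which encodes a ubiquitin-like part fused to a ribosomal protein, and Rack1, a small subunit scaffold, were called in none of the 3 comparisons, with log2 fold changes between -0.49 and 0.14. Among 19 other TOP genes, 0 were called on Dox withdrawal, and 4 rose and 4 fell (42.1%) from +Dox to satellite cells. Of 38 translation initiation factors, 1 rose on Dox withdrawal: Eif4a2, a helicase subunit, with 1.04 ± 0.23 (adjusted p of 0.0257 in edgeR). From +Dox to satellite cells 7 rose and 9 fell, or 42.1%, near the share of all genes. Of 13 elongation and release factors, 0 were called on Dox withdrawal and 4 rose and 4 fell (61.5%) in satellite cells, led by the release factor gene Etf1 with 2.05 ± 0.23.

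The assembly lists are read against the same shares of all genes. Of 49 genes for small subunit processing, 1 fell on Dox withdrawal: Ltv1, an assembly factor, had 10122, 10718 and 11401 normalized counts in +Dox, 3102 and 3364 in -Dox, and 3153, 2661 and 3260 in satellite cells. Its log2 fold change was -1.73 ± 0.25 on Dox withdrawal, with an adjusted p of 0.00309 in edgeR. From +Dox to satellite cells, 6 rose and 4 fell in this list (20.4%), 7 rose and 7 fell among 48 large subunit assembly genes (29.2%), and 3 rose and 0 fell among 15 genes of the RNA polymerase I machinery (20%). Fbl, the methyltransferase fibrillarin, rose from -Dox to satellite cells by 2.48 ± 0.37 on the log2 scale. Among 19 chaperones and regulators, Mycn fell by 5.36 ± 1.04 on Dox withdrawal (adjusted p of 0.0136 in edgeR) and Myc by 0.89 ± 0.23 (adjusted p of 0.0477). Myc, a transcription factor that drives ribosomal genes, had 7531, 6962 and 6918 normalized counts in +Dox, 3672 and 4021 in -Dox, and 118020, 149570 and 154470 in satellite cells. The difference between +Dox and satellite cells was 4.30 ± 0.23 on the log2 scale, with an adjusted p of 4.89e-06 in edgeR. The part of Myc in the levels of the ribosomal protein genes was not tested.

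Mitochondrial ribosomal proteins build the separate ribosome of the mitochondrion, and most of their genes were lower in satellite cells. Of 77 tested, 59 were lower in satellite cells than in +Dox (76.6% called, against 44.9% of all genes) and 0 higher, with a median log2 fold change of -1.80. Against -Dox, 57 were lower and 0 higher (74% called, against 39% of all genes), with a median of -1.89. Their summed normalized counts were 249730 to 415180 in +Dox, 341260 to 373380 in -Dox and 88050 to 109140 in satellite cells, with no overlap between satellite cells and iPax7 cells. Mrpl34 had the lowest fold change against +Dox, -4.29 ± 0.54, with 2262, 3098 and 5238 normalized counts in +Dox and 288, 75.1 and 177 in satellite cells. On Dox withdrawal 0 of 77 were called in edgeR, against 7.7% of all genes, and the median was 0.10. At an unadjusted p under 0.05 there were 5, against 3208 of all 14836 genes tested. Under the 18 settings run, the satellite cell to +Dox median of this list stayed between -2.55 and -1.48, with 54 to 73 called lower and 0 higher, while that of the cytosolic genes ran from -0.96 to 0.076. The difference between the lists was not tested.

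**Figure D5:**
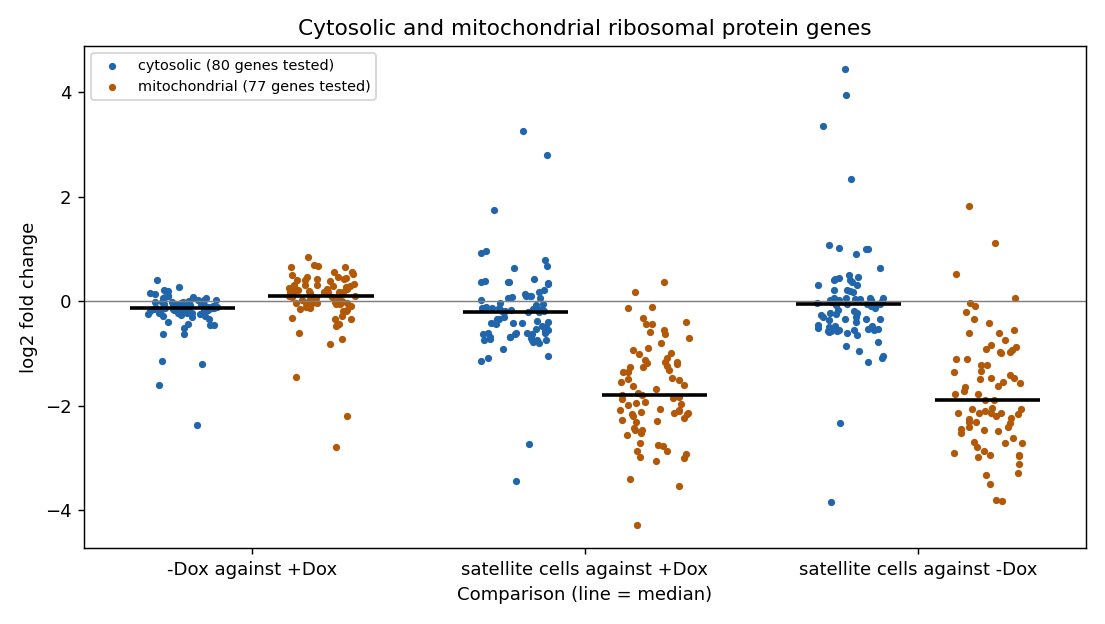
Log2 fold changes of 80 cytosolic and 77 mitochondrial ribosomal protein genes in the 3 comparisons. Points are genes and lines are medians: -0.13 and 0.10 for -Dox against +Dox, -0.21 and -1.80 for satellite cells against +Dox, and -0.063 and -1.89 for satellite cells against -Dox. The mitochondrial points lie lower than the cytosolic points in both satellite cell comparisons.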

How the data were processed

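The authors deposited RNA-seq read counts per gene symbol (HTSeq form, no normalization), with records that aligned to several places set aside. They also deposited ATAC-seq peaks, whose fold enrichment (a ratio) and −log10 p-value and q-value come from MACS2, and ChIP-seq regions on mm9. The submitters' processing notes name Bowtie2 2.2 and 2.2.6, HTSeq 0.6, MACS2 2.0.10, TopHat2 2.0, Trimmomatic 0.32, Picard and edgeR. Which aligner made the RNA counts, and their read length, were not given in the sources used here.

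The 8 count tables (3 +Dox, 2 -Dox, 3 satellite cells) were tested in edgeR 4.0.16 (R 4.3.3, limma 3.58.1): quasi-likelihood test, TMM, filterByExpr, 1 mean per group, Benjamini-Hochberg adjustment over 14836 genes, called at an adjusted p under 0.05. 80 of the 85 genes passed the filter. Standard errors are approximate, the fold change over the square root of F. Intervals on shares are 95% exact and cover counting error only. Alternatives were other scalings, filters and groups, each library left out, DESeq2 1.42.0, and, added after seeing the data, summed ribosomal protein counts as library size and replicate 3 of +Dox and of satellite cells left out together. Replicate numbers come from the count tables' names.

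Copies were searched with BLAST+ 2.17.0 in NCBIM37 with GENCODE M1, whose models matched 83 of 85 genes (not Rpl32l and Rpl41). Peaks counted within 1 kb of a start. The other steps used Python 3.11.15, NumPy 2.4.6, SciPy 1.17.1 and Matplotlib 3.10.9, and the fit was tested on simulated data. Genes were named by rule: paralogues and their parents, stalk genes and Rpsa, the 5 highest and 5 lowest fold changes at 100 normalized counts or more, genes under 10 counts or not tested, the 5 most and 5 least counted, the fusion genes, and the leading called gene of other lists. Other called genes, and genes shown for copies or spread, were named after their values were seen. The gene set and all lists were chosen with earlier results of these data known. Some genes that met these rules are not reported here.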

Additional observations from a re-analysis of the deposited data

How the results depend on the processing

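On Dox withdrawal 0 ribosomal protein genes were called (7.7% of all genes). The call of 1 gene, Rps2, came with every row of at least 1 count (6.33% of all genes) and with only the 2 groups compared (16.3%). It also came with DESeq2 (16.2%), and without replicate 3 of +Dox and of satellite cells together (8.03%). Leaving out 1 +Dox or satellite cell library gave 0 to 1 calls on Dox withdrawal (4.3% to 9.99% of all genes). It gave 4 to 12 for satellite cells against +Dox (35.2% to 46%) and 4 to 10 against -Dox (35.9% to 42.3%). Against -Dox, fits without either -Dox library, which leave 1 library in that group, gave fewer calls among these genes and among all genes. Of the 9 called between satellite cells and +Dox, 4 changed at least 2-fold, where 42.1% of all genes were called with such a change. The count of 9 became 34 with total gene counts (46% of all genes called) and 59 with records aligning to several places in the library size (48.8%). It was 14 with summed ribosomal protein counts as library size (36.5%) and 14 without both replicates 3 (38.2%). Against -Dox the count became 31 with those records (40.1%) and 22 without both replicates 3 (41.4%). With those records, Rpl3 and Rps4x turned from 0.059 and 0.099 to -0.69 and -0.67; the scaling lowers every satellite cell value. Same-numbered libraries were treated as unpaired, since the labels name no pairing. The correlation of their deviations ran from -0.040 to 0.027, which with 2 or 3 libraries a group cannot settle whether they were handled together. A fit with the replicate number as a block called 9 genes on Dox withdrawal, 8 higher and 1 lower (30.3% of all genes). The median was then 0.19 in place of -0.13. This fit called 11 between satellite cells and +Dox (2 higher, 9 lower, 37.7%) and 10 against -Dox (1 higher, 9 lower, 34.2%). Since -Dox has no replicate 3, its comparisons in this fit take nothing from replicate 3 of the other group. With no block and without +Dox replicate 3, the median on Dox withdrawal was also 0.19. The mean share of counts became 7.32% in +Dox, 5.85% in -Dox and 3.94% in satellite cells with those records in the denominator. Without the 25 most counted rows it was 8.64%, 7.11% and 6.46%. Without 1 library it ran from 6.75% to 8.67% in +Dox, 6.10% to 6.57% in -Dox and 5.00% to 5.90% in satellite cells. Within 250 bases of the start, H3K27Ac regions fell to 84.3% and H3K4me1 regions to 49.4% of genes at 3 days of -Dox. Of 1836 values of named genes under alternatives, 1609 kept direction and call, 48 lost and 68 gained the call, 109 changed sign without a call and 2 that had not been called, Rpl3 and Rps4x, changed sign and were called. A stricter peak height was not tried for the ChIP-seq regions, which carry no height. Other causes were not tested. With 2 or 3 libraries a group, small differences are beyond these data.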
